A study of Mus musculus with 12 samples.

Results

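Zfp is the prefix that mouse gene nomenclature gives to a large set of genes for zinc finger proteins, and their transcripts were followed here in mouse dendritic cells exposed to polymer nanoparticles. Members were the genes whose symbol, found through the RefSeq accession of the array probe, was Zfp followed by a number and optional letters. The gene table held 403 such symbols, 264 of them had a probe on the array (399 probes), and 213 were well above background on all 3 arrays of at least 1 time point. These 213 were 1.1574% of the 18403 genes tested. The other 51 were not tested. Of the 18403, 11579 had a symbol and the rest were counted by accession, so shares of all genes below include entries without a symbol. Shares called changed were not counted for genes with a symbol alone. Of the 264 Zfp genes with a probe 80.7% passed this filter, against 70.8% of 16358 named genes. It was passed on all 12 arrays by 175 of the 213, and 38 passed through part of the time points, so a gene could pass through the time at which it was high.

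The cells were immature dendritic cells grown from bone marrow of female mice aged 6 to 8 weeks in 20 ng/ml GM-CSF, a growth factor for myeloid cells, and harvested on day 7. They were exposed to 300 µg/ml of nanoparticles of γ-PGA, poly(γ-glutamic acid), a polymer made by bacteria that is used as a vaccine carrier. Cells at 6, 12 and 24 h of exposure were compared with cells at 0 h, with 3 samples at each time from independent experiments per the series' design. No culture without particles at 6, 12 or 24 h was analysed here, so exposure and time in culture cannot be told apart. Slide was tied to time as well. All arrays at 0 h were on slide 1, and those at 6 h on slides 1 and 2. Arrays at 12 h were on slides 2 and 3, and all at 24 h on slide 3. As no array at 12 or 24 h shared a slide with 0 h, slide and time cannot be told apart there. A block for slide links 12 and 24 h to 0 h only through arrays of other times.

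Most Zfp proteins carry tandem C2H2 fingers, short loops held by a zinc ion that each read a few bases of DNA. Many also carry a KRAB box, which recruits the co-repressor Trim28 and through it the histone methyltransferase Setdb1 and heterochromatin proteins, and such proteins are best known for silencing retroelements and imprinted regions. Others have unrelated tasks. Zfp36 binds AU-rich elements in cytokine transcripts through CCCH fingers and speeds their decay, and Zfp598 marks collided ribosomes with ubiquitin.

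RNA was measured on 1-colour Agilent arrays, of which 2 sets of values were deposited. The first holds scanner signals, used as log2 signal minus the array's 75th percentile, so that a level of 0 is that percentile. The second is a value table of ratios to the median of the 0 h samples. The sources did not match at 24 h. Over 208 Zfp genes with a value on every array, scanner arrays labelled 24 h correlated at a mean of 0.9882 with the arrays at 0 h, where arrays at 0 h correlated at 0.9893 among themselves, and at 0.9384 and 0.9269 with those at 6 and 12 h. In the value table the 24 h columns stood apart from 0 h. Which source carries the labelled time was not settled, so 24 h is given for each source on its own. Across Zfp genes the log2 changes of the sources correlated at 0.68, 0.42 and -0.05 at 6, 12 and 24 h, against 0.73, 0.54 and -0.07 across all genes. On each array 50.9 to 59.6% of the spots were well above background. No Zfp gene was saturated on any array. All 8 dendritic cell markers, Itgax, H2-Ab1, H2-Aa, Cd74, Flt3, Zbtb46, Cd209a and Ciita, were above background on every array at 0 h. So were the measured markers of macrophages (4), neutrophils and precursors (7), mast cells and basophils (6) and B cells (3). Detection alone thus does not set these cell types apart. Of the 8 dendritic markers the scanner called 1 higher and 1 lower at 6 h (25%, against 26.1% of all genes). The table called 2 higher and 1 lower (37.5%, against 25%). Markers of other cells also moved. The summed scanner signal of the 2 measured NK cell markers, in multiples of the 75th percentile, was 3.15 to 3.33 at 0 h, 0.0756 to 0.132 at 6 h and 0.467 to 0.522 at 12 h, while Ncr1 and Gzma did not pass the filter at any time. The scanner called 2 of the 2 lower at 6 and 12 h. The table called 1 higher and 1 lower at 6 h, and 1 lower at 12 h. Only 1 of these 2 was above background on every array at 0 h. The summed scanner signal of 3 stroma markers was 0.382 to 0.621 at 6 h, against 0.222 to 0.276 at 0 h, while Col1a1 and Col3a1 did not pass the filter. That of 4 macrophage markers was 135 to 136 at 0 h, 138 to 154 at 6 h and 261 to 289 at 12 h, with 2 of the 4 called lower at 6 h and 1 higher and 1 lower at 12 h by the scanner, and 1 lower at 6 h and 2 lower at 12 h in the table. Of all genes the scanner called 10.2% higher and 15.9% lower at 6 h, and 13.7% and 16.9% at 12 h. The table called 13.2% and 11.8% at 6 h, and 15.7% and 12.1% at 12 h. Marker sets this small are too few genes to set against these shares. The part of these markers in the Zfp changes was not tested. In bulk RNA of this kind, fewer cells of a type and less RNA per cell cannot be told apart.

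Fewer Zfp genes changed than genes at large. A gene was called changed at a limma adjusted p under 0.05 and at least 2-fold. At 6 h against 0 h the scanner values called 11 Zfp genes higher and 21 lower of 213 (15%), against 26.1% of all genes, and the value table called 9 higher and 8 lower (7.98%), against 25% of all genes. With quantile scaling the split in the table was 2 higher and 6 lower, and relative to the median of all genes 6 and 14, while normexp gave 8 and 6 by the scanner. By direction the scanner backgrounds were 10.2% higher and 15.9% lower, and those of the table were 13.2% and 11.8%. At 12 h against 0 h the scanner values called 15 higher and 16 lower (14.6%, against 30.6% of all genes) and 10 higher and 7 lower in the table (7.98%, against 27.8%), with backgrounds of 13.7% higher and 16.9% lower by the scanner and 15.7% and 12.1% by the table. The split in the table was 3 and 6 with quantile scaling and 7 and 10 relative to the median of all genes, and normexp gave 11 and 7 by the scanner. At 24 h against 0 h the scanner values called 2 higher and 1 lower (1.41%, against 0.837%), and the table called 10 of each (9.39%, against 26.3%). The backgrounds there were 0.696% higher and 0.141% lower by the scanner and 13.3% and 13% by the table, whose split was 3 and 7 with quantile scaling and 7 and 11 relative to the median of all genes. The share of Zfp genes called was thus below that of all genes at 6 and 12 h in both sources. Among genes above background on all 12 arrays the Zfp share at 6 h was 10.3% against 22.4% by the scanner and 6.29% against 21.8% by the table. At 12 h it was 12.6% against 27.3%, and 7.43% against 24.4%. At 24 h it was 1.14% against 0.271%, and 8% against 22.8%, and between 12 and 6 h it was 2.29% against 5.44%, and 1.14% against 4.49%.

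The shares lay closer together when size was left aside. Without the 2-fold threshold 134 of the 213 Zfp genes passed at 6 h by the scanner (62.9%, against 71.8% of all genes) and 139 by the table (65.3%, against 71.2%). At 12 h 140 passed by the scanner (65.7%, against 75.6%) and 141 by the table (66.2%, against 73.9%). At 24 h 8 passed by the scanner (3.76%, against 3.58%) and 134 by the table (62.9%, against 72.5%). Between 12 and 6 h 82 passed by the scanner (38.5%, against 47.4%) and 98 by the table (46%, against 47.9%). The quartiles of the log2 change at 6 h by the scanner were -0.56 and 0.22 for Zfp genes, and -0.67 and 0.44 for all genes. The medians were -0.12 for Zfp genes and -0.06 for all genes at 6 h by the scanner, and -0.02 and 0.14 by the table. At 12 h they were -0.05 and -0.03 by the scanner and 0.15 and 0.22 by the table. All 3 samples at 6 h lay above or all 3 below those at 0 h in 147 of 208 Zfp genes by the scanner (70.7%, against 75.4% of all genes) and in 147 of 213 by the table (69%, against 72.3%). At 12 h the shares without overlap were 74.5%, against 79.4% of all genes, by the scanner, and 69.5%, against 77.2%, by the table. At 24 h they were 40.9%, against 44.5%, and 68.1%, against 78.1%, and between 12 and 6 h they were 39.9%, against 50%, and 49.3%, against 54.3%. Over the whole time course the moderated F-test with at least 2-fold at any time called 41 Zfp genes by the scanner (19.2%, against 36.1%) and 30 by the table (14.1%, against 36.9%).

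**Figure D1:**
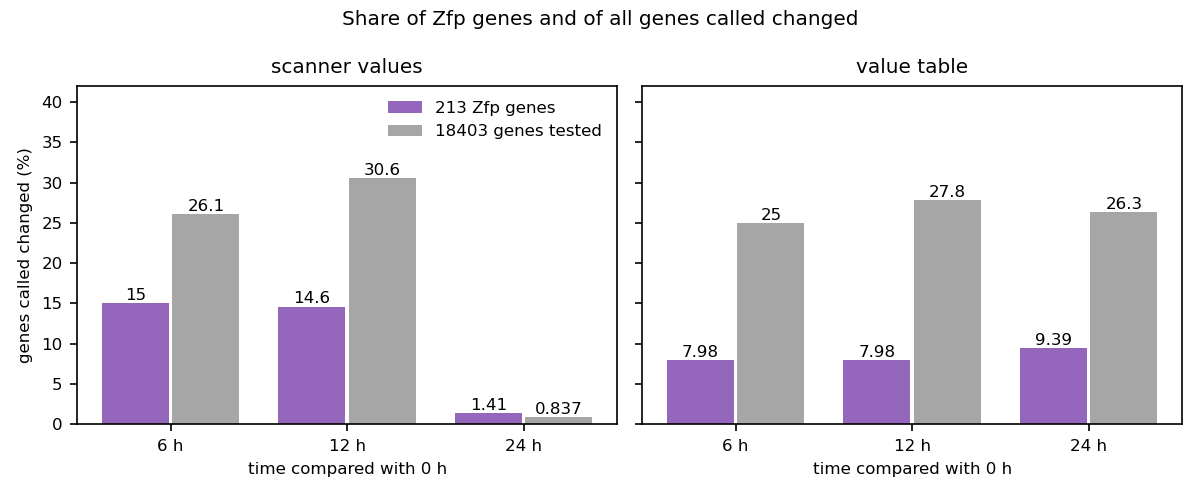
Share of genes called changed (%, vertical axis, from 0) at 6, 12 and 24 h against 0 h, for the 213 Zfp genes (purple) and the 18403 genes tested (grey), in the scanner values (left) and the value table (right). The Zfp bar is the lower of the pair except at 24 h in the scanner values, where both are under 2%.

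Both sources called the same direction for 10 Zfp genes at 6 h, 6 higher and 4 lower (4.69% of Zfp genes, against 14.5% of all genes), and for 7 at 12 h, 4 higher and 3 lower (3.29%, against 12.7%). Those were 10 of 32 scanner calls and 10 of 17 table calls at 6 h. The genes higher in both at 6 h were Zfp811, Zfp503, Zfp819, Zfp275, Zfp422 and Zfp607a, and those lower were Zfp692, Zfp467, Zfp536 and Zfp647. Zfp811 and Zfp607a were not well above background at 0 h, nor Zfp536 and Zfp647 at 6 h. Their scanner calls thus rest partly on signal at background, and the genes passed the filter through times at which they were higher. The scanner bounds of Zfp607a, Zfp536 and Zfp647, given below, were short of 2-fold. At 12 h Zfp811, Zfp503, Zfp819 and Zfp607a were higher in both, and Zfp692, Zfp467 and Zfp658 were lower. Zfp811, Zfp503, Zfp692 and Zfp467 kept their calls at 6 and 12 h in both sources under each alternative that tested them. The alternative limited to genes above background on all arrays did not test Zfp811 and Zfp467, so it says nothing about their calls. Quantile scaling of the table ended the 6 h calls of Zfp275, Zfp422, Zfp607a, Zfp819, Zfp647 and Zfp536 there (0.56, 0.92, 0.84, 0.77, -0.97 and -1.01), and normexp background correction ended the 6 h scanner calls of Zfp275, Zfp607a, Zfp536 and Zfp647 (0.72, 0.17, -0.45 and -0.34). The 12 h table call of Zfp607a was lost with quantile scaling and relative to the median of all genes (0.52 at the lowest). Normexp ended the 12 h scanner calls of Zfp607a and Zfp658 (0.31 and -0.68). At 24 h no Zfp gene was called the same way in both sources (limma, 0.0652% of all genes).

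**Figure D2:**
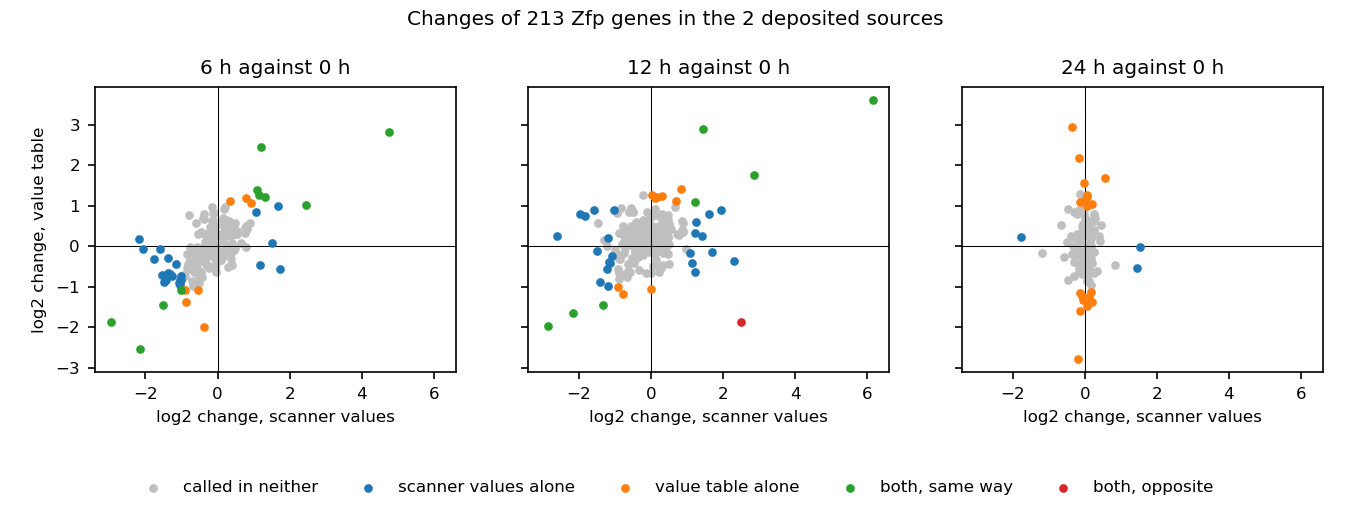
Log2 change of each of the 213 Zfp genes against 0 h, in the scanner values (horizontal axis) and in the value table (vertical axis), with 1 panel per time and colours for the source or sources that called the gene. Most points lie near the origin. The 10 genes called alike at 6 h have the same sign in both sources, though sizes differ for some. At 24 h the table's changes spread while the scanner's do not.

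Zfp811 had the largest rise of any Zfp gene in both sources at 6 and 12 h. Its scanner level was -6.86, -6.71 and -6.42 at 0 h, -1.93, -2.02 and -1.78 at 6 h, -0.51, -0.52 and -0.50 at 12 h, and -7.11, -7.02 and -6.93 at 24 h. It was not well above background on any array at 0 or 24 h and was so on all 6 arrays at 6 and 12 h. It therefore rose at least 6.03-fold at 6 h and at least 15.9-fold at 12 h by the scanner (n = 3 per group). These bounds set the mean at 6 or 12 h against, per array, the higher of the lowest detected signal and the probe's own. Zfp811 passed the filter only through 6 and 12 h, where it was high, so no p-value is given for it. In the value table its ratio was 1, 1.58 and 0.709 at 0 h, 7.76, 7.64 and 6.81 at 6 h, 13.6, 12.8 and 12.0 at 12 h, and 7.45, 8.12 and 8.70 at 24 h. In the table all samples at 6, 12 and 24 h lay above those at 0 h, with log2 changes of 2.83, 3.62 and 2.96. As Zfp811 was not well above background at 0 h by the scanner, the size of these changes is uncertain. Their lack of overlap is not read as support, given how the gene passed the filter.

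Zfp503, a developmental repressor known from the striatum and limb, was the next in the table. Its scanner level was -1.15, -1.04 and -1.09 at 0 h, 0.27, -0.03 and 0.06 at 6 h, 0.27, 0.34 and 0.43 at 12 h, and -1.26, -1.31 and -1.20 at 24 h. Its ratio in the table was 1, 0.990 and 1.05 at 0 h, 6.07, 4.93 and 5.74 at 6 h, 7.86, 7.64 and 7.32 at 12 h, and 4.42, 4.86 and 4.53 at 24 h. The groups at 6 and 12 h did not overlap with 0 h in either source. The rise was 2.29-fold at 6 h and 2.71-fold at 12 h by the scanner (log2 change 1.19 and 1.44, SE 0.075) and 5.48-fold and 7.50-fold by the table (2.45 and 2.91, SE 0.077).

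Zfp819 rose 5.49-fold at 6 h and 7.29-fold at 12 h by the scanner (2.46 and 2.87, SE 0.083, adjusted p = 1.82e-09 at 6 h with limma). Its scanner level was -1.09, -1.17 and -1.19 at 0 h, 1.28, 1.32 and 1.32 at 6 h, 1.58, 1.94 and 1.62 at 12 h, and -0.98, -1.05 and -1.05 at 24 h. In the table it stood at 1.10, 0.972 and 1 at 0 h, at 2.03, 2.15 and 2.07 at 6 h, at 3.68, 3.73 and 3.02 at 12 h and at 1.30, 1.36 and 1.48 at 24 h, all above 0 h. Its rise of 1.03 at 6 h in the table was 0.99, short of 2-fold, without 0 h replicate 2.

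The other rises shared by the sources were smaller. Zfp275 had scanner levels of -1.05, -1.15 and -1.03 at 6 h, against -2.24, -2.21 and -2.20 at 0 h, a rise of 2.21-fold, and its rise in the table was 2.40-fold. At 12 h it was 1.78-fold higher by the scanner, under the threshold, and had risen 2.65-fold in the table. Zfp422, a transcription factor first described in tooth development, showed rises of 2.50-fold by the scanner and 2.33-fold in the table at 6 h. At 12 h it was still called by the scanner (log2 change 1.08) while its table ratio was back at 0.917, 0.922 and 0.844. That scanner call was lost with normexp (0.98), quantile scaling (0.999) and the mean of its probes (0.83). Zfp607a was not well above background at 0 h and rose at least 1.34-fold at 6 h and at least 1.46-fold at 12 h by the scanner. Its rises in the table, 2.63-fold and 2.13-fold, are set against 0 h as well, so their size is uncertain. Its scanner calls were lost without 6 h replicate 1 or 3 (0.97 at the lowest) and without 12 h replicate 2 (0.99).

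Zfp692, whose human counterpart represses a gluconeogenic gene, fell in both sources. Its scanner level was -0.17, -0.25 and -0.28 at 0 h, -2.65, -2.26 and -2.25 at 6 h, -2.69, -2.07 and -2.40 at 12 h, and -0.25, -0.14 and -0.14 at 24 h. Its table ratio was 1.21, 1 and 0.953 at 0 h, 0.161, 0.189 and 0.191 at 6 h, 0.376, 0.333 and 0.304 at 12 h, and 0.458, 0.366 and 0.436 at 24 h. The samples at 6 and 12 h all lay below 0 h. It fell by 2.16 on the log2 scale at both times by the scanner (SE 0.15) and by 2.54, 1.64 and 1.33 at 6, 12 and 24 h by the table (SE 0.12).

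Zfp467, which drives fat cell and restrains bone cell formation from marrow stroma, had the largest scanner fall of the Zfp genes. Its scanner level was -1.29, -1.47 and -1.38 at 0 h, -4.45, -4.19 and -4.36 at 6 h, -4.23, -4.03 and -4.46 at 12 h, and -1.31, -1.32 and -1.28 at 24 h. It was well above background on 1 of 3 arrays at 6 h and on 3 of 3 at 12 h. Its table ratio was 0.970, 1 and 1.03 at 0 h, 0.300, 0.262 and 0.265 at 6 h, 0.283, 0.254 and 0.235 at 12 h, and 0.335, 0.342 and 0.402 at 24 h. Its log2 change was -2.96 at 6 h and -2.86 at 12 h by the scanner (SE 0.10, adjusted p = 2.32e-09 and 2.16e-09 with limma), where the level at 6 h rests on signals mostly at background. With normexp it was -1.44 and -1.24, still called. By the table it fell by 1.86, 1.96 and 1.48 at 6, 12 and 24 h (SE 0.092). Zfp516, the other measured member of the list for fat and bone cells and an activator of brown fat genes, was at -0.80 at 6 h by the scanner and 0.77 by the table, under 2-fold.

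Zfp536 and Zfp647 fell at 6 h in both sources. Zfp536, a repressor of neuronal differentiation, was not well above background on any array at 6 h, so its scanner fall was at least 1.67-fold, with table ratios of 0.606, 0.206 and 0.282 at 6 h, against 0.681, 1 and 1.07 at 0 h. With slide as a block its table change at 6 h was -0.57, short of the call. Zfp647 was lower by at least 1.77-fold on the scanner scale, and 2.11-fold lower in the table. Within slide 1, which holds 6 h replicate 1 and all samples at 0 h, the scanner change of Zfp647 was -0.87. Its scanner call was also lost without 0 h replicate 2, 0 h replicate 3 or 6 h replicate 2 (-0.90 at the weakest). Zfp658, whose human counterpart controls zinc-responsive genes, fell by 1.99, 1.46 and 1.38 at 6, 12 and 24 h in the table and by 1.34 at 12 h by the scanner, where it was at -0.39 at 6 h.

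**Figure D3:**
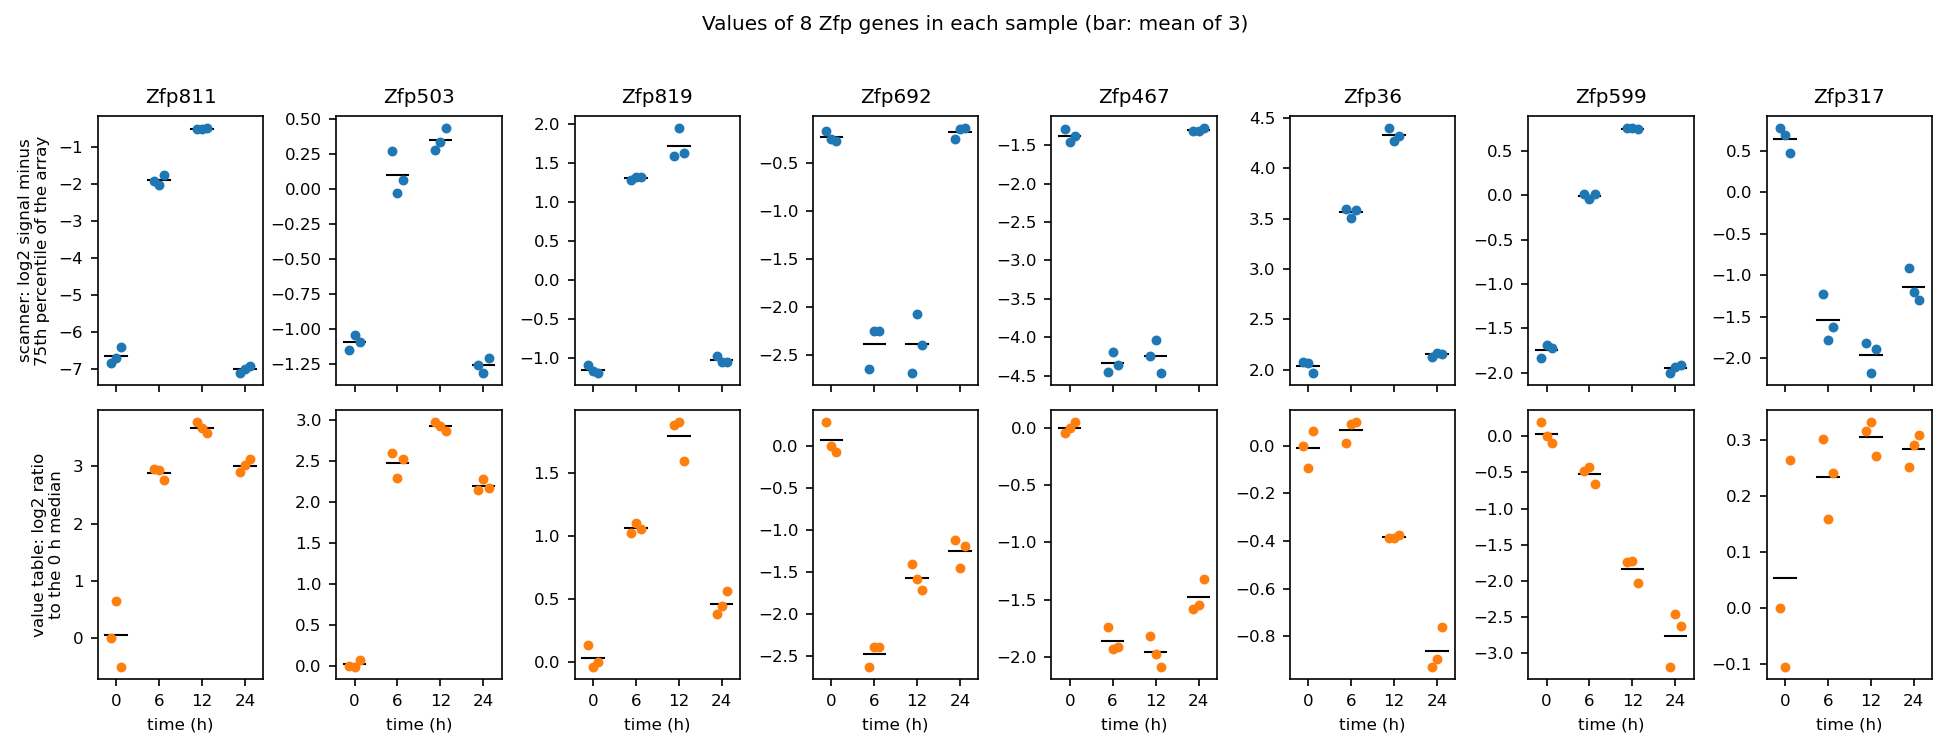
Values of 8 Zfp genes in each sample at 0, 6, 12 and 24 h, with 1 point per sample and a bar at the mean of 3, as scanner log2 level (top row, blue) and log2 ratio in the value table (bottom row, orange). Vertical axes differ between panels. Zfp811, Zfp503, Zfp819, Zfp692 and Zfp467 move alike in both rows at 6 and 12 h, whereas Zfp36, Zfp599 and Zfp317 do not.

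The stretch just before the start of transcription is shown for the 4 genes whose calls held in both sources at 6 and 12 h under each alternative that tested them. Each is 250 bases from RefSeq, build GRCm38.p6, 5′ to 3′ on the strand of the gene, ending at the base before the start. Capitals mark matches to the searched motifs. Zfp811 (chr17:32809932-32810181, minus strand) held a CCAAT box 57 to 53 bases before the start. Zfp692 (chr11:58306819-58307068, plus strand) held 1 match to the NRF1 motif in the last 10 bases before the start. Zfp503 (chr14:21989602-21989851, minus strand) and Zfp467 (chr6:48445091-48445340, minus strand) held none of the searched letters in this window.
Zfp811: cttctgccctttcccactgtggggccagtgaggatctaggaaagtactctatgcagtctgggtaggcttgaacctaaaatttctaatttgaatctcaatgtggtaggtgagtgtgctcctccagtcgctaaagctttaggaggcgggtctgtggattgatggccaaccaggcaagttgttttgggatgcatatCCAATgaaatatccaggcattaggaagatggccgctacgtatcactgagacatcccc
Zfp503: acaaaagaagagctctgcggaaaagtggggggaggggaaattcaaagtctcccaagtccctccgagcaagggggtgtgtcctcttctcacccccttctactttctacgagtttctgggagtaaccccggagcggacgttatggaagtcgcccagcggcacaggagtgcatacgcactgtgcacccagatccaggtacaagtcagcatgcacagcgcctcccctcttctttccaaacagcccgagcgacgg
Zfp692: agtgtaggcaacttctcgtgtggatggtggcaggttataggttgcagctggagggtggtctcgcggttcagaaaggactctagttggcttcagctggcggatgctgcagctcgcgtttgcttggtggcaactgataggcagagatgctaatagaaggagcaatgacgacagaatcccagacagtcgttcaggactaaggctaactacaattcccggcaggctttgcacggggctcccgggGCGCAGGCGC
Zfp467: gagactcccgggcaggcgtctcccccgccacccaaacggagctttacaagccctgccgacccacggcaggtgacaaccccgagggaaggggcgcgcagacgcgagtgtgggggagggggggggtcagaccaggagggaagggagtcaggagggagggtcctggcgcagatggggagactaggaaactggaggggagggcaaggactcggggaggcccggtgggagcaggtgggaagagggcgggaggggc

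Among the 213 genes 183 had such a window. Both strands were searched for the CCAAT box, the TATA box as TATAAA, the AP-1 motif as TGANTCA, the CRE motif as TGACGTCA, the ETS motif as CCGGAAGT, and the NRF1 and NF-kB motifs by their consensus, and matches of different motifs could overlap. A CCAAT box stood in 52.5% of Zfp windows, against 40.7% of the windows of 9334 measured genes. The AP-1 motif stood in 2.73% against 6.05%, NF-kB in 7.1% against 10.4%, TATA in 6.01% against 9.55%, ETS in 8.74% against 6.44%, NRF1 in 9.84% against 8.69% and CRE in 3.28% against 2.73%. Of 13 Zfp genes with a window that the scanner called higher at 6 or 12 h, 10 held a CCAAT box (76.9%) and 3 an NF-kB motif (23.1%), and of 20 called lower 11 (55%) and 2 (10%) did. Median GC content was 55.6% in Zfp windows and 58.8% in those of measured genes. These shares describe letters in a window, with no test.

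Among Zfp proteins that act on RNA or ribosomes, 8 of 8 in the list were measured. The scanner called 1 higher, Zfp36, and 0 lower at 6 and at 12 h (12.5% each, against 26.1% and 30.6% of all genes). The table called 0 at any time, against 25%, 27.8% and 26.3% of all genes at 6, 12 and 24 h. The median log2 change of these 8 was 0.37 at 6 h by the scanner and 0.27 by the table. Zfp36, or tristetraprolin, which speeds decay of Tnf and other cytokine transcripts, had scanner levels of 2.08, 2.07 and 1.97 at 0 h, 3.59, 3.51 and 3.58 at 6 h, 4.40, 4.27 and 4.32 at 12 h, and 2.13, 2.17 and 2.16 at 24 h. It rose 2.87-fold at 6 h and 4.89-fold at 12 h (log2 change 1.52 and 2.29, SE 0.047, adjusted p = 1.00e-09 and 4.38e-11 with limma). In the table its ratio was 1, 0.938 and 1.04 at 0 h, 1.01, 1.06 and 1.07 at 6 h, 0.764, 0.764 and 0.770 at 12 h, and 0.525, 0.537 and 0.589 at 24 h. The groups at 12 h thus lay on opposite sides of 0 h in the sources. A second Zfp36 probe rose by 1.39 and 2.10 at 6 and 12 h by the scanner, and changed by 0.64 and 0.04 in the table, under the threshold. Which of the sources holds for Zfp36 was not settled.

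The rest of these RNA-related members stayed under 2-fold in both sources. Zfp598, a ubiquitin ligase of collided ribosomes, was higher in every sample, by 0.91 and 0.86 at 6 and 12 h by the scanner and 0.57 and 0.63 by the table. Zfp593, whose human counterpart acts in ribosome assembly, was at 0.81 and 0.72 by the scanner and 0.43 and 0.31 by the table. Zfp622, Zfp638, Zfp326, Zfp346 and Zfp106 lay between -0.71 and 0.47 at 6 and 12 h by the scanner. Zfp326 went apart at 12 h, at -0.71 by the scanner and 0.37 by the table. Zfp91, whose human counterpart attaches ubiquitin to the NF-kB kinase NIK, was at -0.03 and -0.16 by the scanner and 0.51 and 0.48 by the table.

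Of 4 genes for imprinting and retroelement silencing 2 were measured, and 0 were called in either source, too few genes to set against the shares of all genes. Zfp445, which protects imprints, lay at 0.07, -0.07 and -0.06 at 6, 12 and 24 h by the scanner and at -0.16, -0.14 and -0.18 by the table. Zfp809, which silences murine leukaemia virus, lay at -0.06, -0.23 and -0.03 by the scanner and at 0.04, 0.65 and 0.39 by the table.

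Of 12 chromatin and pluripotency regulators 8 were measured. The scanner called 0 higher and 2 lower at 6 h (25%, against 26.1% of all genes), and 1 of each at 12 h (25%, against 30.6%). The table called 1 higher at 6 h (12.5%, against 25% of all genes). It called 1 lower at 12 h and at 24 h (12.5% each, against 27.8% and 26.3%). Zfp281, a regulator of pluripotency genes, had scanner levels of 1.58, 1.64 and 1.56 at 12 h, against 0.38, 0.31 and 0.46 at 0 h, a rise of 2.32-fold (1.21 ± 0.055 SE). In the table it was at 0.32, under 2-fold. Zfp277, a partner of Polycomb proteins, had scanner levels of 1.12, 1.09 and 1.06 at 6 h, against 2.26, 2.23 and 2.27 at 0 h. It fell by 1.16 and 1.07 at 6 and 12 h by the scanner and was at -0.44 and -0.25 in the table. Zfp219 had scanner levels of 2.10, 2.17 and 2.14 at 0 h, 1.20, 0.92 and 1.25 at 6 h and 2.20, 2.07 and 2.10 at 12 h, so that 6 h alone stood apart. It fell by 1.02 at 6 h, which fell short of 2-fold without 0 h replicate 2 or 6 h replicate 2 (-0.91 at the weakest), and the table had -0.84. Its call was also lost within slide 1 and with slide as a block (-0.94 each), with normexp (-0.94), with the mean of its probes (-0.95) and relative to the median of all genes (-0.96).

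Zfp263 rose 2.18-fold at 6 h in the table, with ratios of 2.37, 2.17 and 2.22, and stood at 0.35 by the scanner. Its call was lost with quantile scaling (0.65), the mean of its probes and relative to the median of all genes (0.98 each). Zfp217, a growth-promoting factor of human breast tumours that binds a histone demethylase complex, was called in the table alone. Its ratios were 1, 1 and 0.992 at 0 h, 0.491, 0.507 and 0.444 at 12 h and 0.293, 0.337 and 0.365 at 24 h. Its change of -1.06 at 12 h missed 2-fold without 12 h replicate 3 (-0.999). Zfp143, an activator that binds promoters, was at 0.76 and 0.87 by the scanner and 0.46 and 0.41 by the table at 6 and 12 h, under the threshold. Zfp148 and Zfp644 lay between -0.50 and 0.29 at 6 and 12 h in both sources.

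Of the 2 members with a part in mitosis and genome upkeep, 0 were called, again too few to set against the shares of all genes. Zfp207, whose human counterpart helps chromosomes attach to the spindle, was at 0.55 and 0.77 at 6 and 12 h by the scanner and at 0.38 and 0.28 by the table. Zfp830 was at 0.15 and 0.11 by the scanner and at 0.62 and 0.78 by the table.

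Of 5 genes for lymphoid and blood development 3 were measured. Zfp385a, a p53-linked factor of megakaryocytes, had a scanner level of 2.06 ± 0.046 at 6 h, against 3.11 ± 0.019 at 0 h (SD, n = 3 each), with all samples at 6 h below those at 0 h. It fell by 1.05 by the scanner and was at -0.84 in the table. The scanner call was lost with normexp (-0.97), the mean of its probes (-0.70) and relative to the median of all genes (-0.99). Zfp318, needed for IgD transcripts in B cells, lay within -0.21 to 0.13 at all times in both sources. Zfp609, a chromatin factor of developing thymocytes, was not well above background at 0 h, was so on 1 of 3 arrays at 6 h, and was called higher by at least 1.37-fold, 1.97-fold and 1.76-fold at 6, 12 and 24 h by the scanner. With slide as a block it was at 1.12 and 1.34 at 6 and 12 h, not called. In the table its 0 h ratios ranged from 0.707 to 2.73 and it was not called. Its call at 6 h was lost without 0 h replicate 2 (0.96), and its call at 24 h held in 3 of 12 fits that left out a sample, those without 0 h replicate 3, 12 h replicate 1 or 12 h replicate 3 (1.32 was the lowest change without another).

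At 6 and 12 h the changes of Zfp599 and Zfp317 had the widest gaps between the sources. Zfp599 was the 1 Zfp gene called in opposite directions at the same time. Its scanner level was -1.83, -1.69 and -1.72 at 0 h, 0.01, -0.04 and 0.01 at 6 h, 0.75, 0.75 and 0.74 at 12 h, and -2.00, -1.93 and -1.91 at 24 h. Its table ratio was 1.14, 1 and 0.942 at 0 h, 0.714, 0.745 and 0.632 at 6 h, 0.299, 0.302 and 0.245 at 12 h, and 0.109, 0.181 and 0.162 at 24 h. At 12 h it rose 5.65-fold by the scanner and fell by 1.87 on the log2 scale by the table (limma adjusted p = 1.93e-11 and 3.80e-06, n = 3 per group). Its second probe moved the same ways, by 2.34 and -0.96.

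Zfp317 fell by the scanner, with log2 changes of -2.19, -2.60 and -1.78 at 6, 12 and 24 h (SE 0.16). Its levels were 0.77, 0.69 and 0.48 at 0 h, -1.22, -1.78 and -1.62 at 6 h, -1.82, -2.17 and -1.88 at 12 h, and -0.91, -1.20 and -1.29 at 24 h. In the table it lay at 0.18, 0.25 and 0.23, under 2-fold. Its second probe stood at -0.06, 0.25 and 0.00 by the scanner, so the fall was seen with 1 of 2 probes. With the mean of the probes the change at 24 h was -0.89, and with slide as a block it was -1.42 and not called. It was the only Zfp gene called lower at 24 h by the scanner. The others called there, both higher, were Zfp609, which was not well above background at 0 h, and Zfp114, at 1.45 (limma adjusted p = 0.028 for Zfp114). Zfp114 had levels of -1.38, -1.52 and -1.31 at 24 h, against -2.75, -3.01 and -2.81 at 0 h, and lost its call without any 1 of those 6 samples (1.37 at the lowest). With slide as a block Zfp114 was at 0.20 and Zfp609 at 0.64, neither called.

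Further calls came from 1 source. By the scanner Zfp617 rose 3.19-fold and 3.82-fold at 6 and 12 h, and its table changes of 0.98 and 0.89 missed 2-fold. Zfp704 had scanner levels of 0.03, -0.16 and 0.18 at 12 h, against 1.84, 1.84 and 1.85 at 0 h, a fall of 1.82, and was at 0.75 in the table. Zfp667 showed a scanner fall of at least 2.20-fold at 6 h and was at -0.08 in the table. Zfp101 fell by 1.32 and 1.42 at 6 and 12 h by the scanner and, in the table, by 1.32 at 24 h. Normexp ended the scanner calls of Zfp667 (-0.68 at 6 h) and of Zfp101 (-0.58 and -0.44 at 6 and 12 h). Quantile scaling ended the table call of Zfp101 (-0.95). Zfp606 was called lower at 6 h by the scanner through 0 h replicate 3, which read -0.05 where the other samples at 0 h read -2.76 and -2.97. Without it the change was -0.84, the call was also lost without any 1 of the samples at 6 h (-1.76 at the weakest), and the table had -0.31.

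In the table Zfp655 rose 2.27-fold, 2.36-fold and 2.23-fold at 6, 12 and 24 h, with ratios of 2.50, 2.23 and 2.11 at 6 h. By the scanner it stood at 0.78 at 6 h and 0.29 at 12 h. Zfp810 fell by 1.38, 1.19 and 1.23 in the table and was at -0.88 and -0.77 by the scanner. Zfp414 fell by 1.09 at 6 h in the table and was at -0.90 by the scanner. Zfp13 and Zfp30 rose by 1.57 and 1.22 at 24 h in the table. Zfp30 was called lower at 12 h by the scanner (-1.02), which missed 2-fold without 0 h replicate 1, 12 h replicate 1 or 12 h replicate 3 (-0.94 at the weakest). Zfp532 was called higher at 24 h in the table (1.69) and lower at 6 and 12 h by the scanner, where it was not well above background at 0, 6 or 12 h, so no fold is given. At 24 h in the table all 7 measured markers of neutrophils and their precursors were also lower (median -2.58), while their summed scanner signal was 294 to 302 times the 75th percentile at 24 h and 293 to 301 times at 0 h. Ly6g had no named probe. Mast cell and basophil markers were lower in 5 of 6 and higher in 1 at 24 h in the table. Of all genes the table called 13% lower and 13.3% higher at that time. The part of these markers in the table's Zfp changes was not tested.

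**Figure D4:**
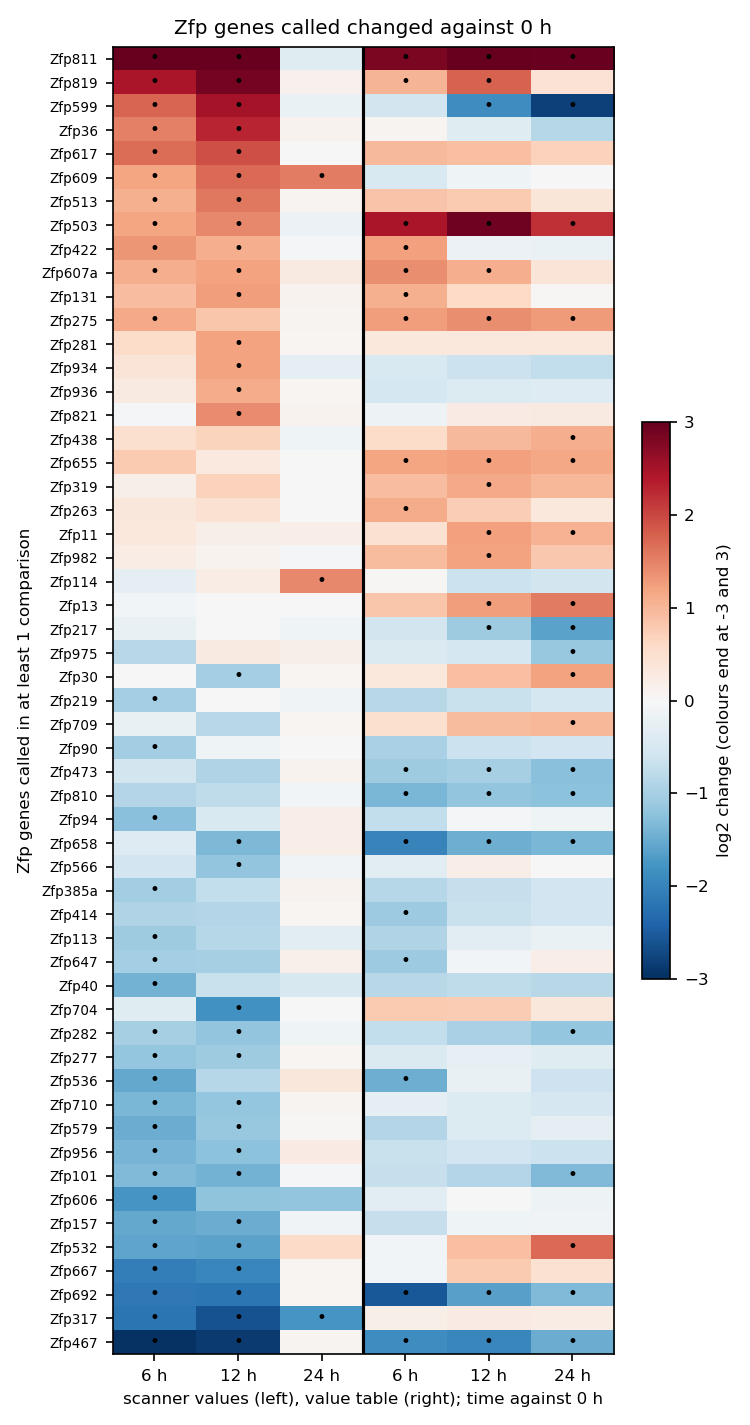
Log2 change against 0 h of the 55 Zfp genes called in at least 1 comparison, with 1 row per gene in order of the mean scanner change at 6 and 12 h, in the scanner values (left 3 columns) and the value table (right 3 columns). Red is higher and blue lower, colours end at -3 and 3, and dots mark calls. The scanner's 24 h column is near 0 for most rows.

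Between 12 and 6 h few Zfp genes moved. The scanner called 4 higher and 2 lower (2.82%, against 6.99% of all genes) and 1 higher and 2 lower in the table (1.41%, against 5.8%). By direction the backgrounds were 4.89% higher and 2.1% lower by the scanner and 3.07% and 2.73% by the table. None was shared (limma, against 0.413% of all genes). By the scanner Zfp811 rose a further 1.40, and Zfp219 was back by 1.00, which missed 2-fold without 6 h replicate 2 or 12 h replicate 1 (0.90 at the weakest). Zfp821 and Zfp975 were the others higher, and Zfp704 and Zfp30 fell by 1.46 and 1.03. Without 6 h replicate 3, 12 h replicate 1 or 12 h replicate 3 the change of Zfp30 missed 2-fold (-0.95 at the weakest). In the table Zfp536 rose by 1.24, and Zfp422 and Zfp599 fell by 1.39 and 1.31. The call of Zfp536 was lost without 6 h replicate 2, 6 h replicate 3, 12 h replicate 2 or 12 h replicate 3 (0.91 at the lowest), and that of Zfp599 with the mean of its probes (-0.66). Zfp821 and Zfp975 were named after their values were seen.

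Of 23 genes for proteins that work with the KRAB box 20 were measured. At 6 h the scanner called 1 higher and 2 lower (15%, against 26.1% of all genes, median -0.13), while the table called 2 higher and 3 lower (25%, against 25% of all genes, median -0.06). Trim28, the co-repressor that KRAB boxes bind, was at -0.41 and -0.35 at 6 and 12 h by the scanner and at -0.59 and -0.45 by the table, under 2-fold. Setdb1, its histone methyltransferase partner, was at -0.44 and -0.38, and at -0.87 and -0.51. Dnmt1, the maintenance DNA methyltransferase, fell by 1.90 at 6 h by the scanner and by 1.22 by the table. Cbx3, a heterochromatin protein, fell by 1.57 and by 1.25. Pphln1, a subunit of the HUSH silencing complex, rose 2.84-fold and 2.06-fold at 6 h.

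Of 24 relatives of Zfp36 and genes of mRNA decay 22 were measured, and at 6 h the scanner called 2 of each direction (18.2%, against 26.1% of all genes), while the table called 4 higher and 1 lower (22.7%, against 25%), with medians of 0.14 and 0.12. Zc3h12a, the RNase Regnase-1 that cuts inflammatory transcripts, was 7.20-fold higher at 6 h in the scanner values and 4.81-fold higher in the table. Mapkapk2, the kinase that holds tristetraprolin inactive, rose 3.28-fold and 4.02-fold. Zfp36l2, a close relative of Zfp36, fell by 2.12 and 1.56. At 12 h the scanner called 4 higher and 2 lower (27.3%, against 30.6% of all genes), and the table called 2 of each (18.2%, against 27.8%).

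The other zinc finger families by symbol, Zbtb, Zscan, Zkscan, Klf and Zfhx, gave 62 measured genes. At 6 h 5 of each direction were called by the scanner (16.1%, against 26.1% of all genes), and 6 higher and 2 lower by the table (12.9%, against 25%), with medians of -0.03 and 0.10. Their shares thus also lay below those of all genes, as those of the Zfp genes did (15% and 7.98%), and a difference between these families and the Zfp genes was not tested. Zbtb32, a repressor in activated lymphocytes, had the largest rise, by 3.01 and 3.08, and Klf4, a factor of monocyte differentiation, the largest fall, by 2.64 and 2.49.

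Many Zfp genes lie in tandem clusters, and 111 of the 213 had another Zfp gene as the next gene in the annotation. At 6 h the scanner called 6 higher and 7 lower of those (11.7%), and 5 higher and 14 lower of the 102 without such a neighbour (18.6%), against 26.1% of all genes. At 12 h the shares were 12.6% and 16.7%. By the table they were 6.31% and 9.8% at 6 h, and the order was turned at 12 h (9.01% and 6.86%) and 24 h (10.8% and 7.84%). In 46 neighbouring pairs both genes were measured, 0 pairs had both called at 6 h by the scanner, and 29 had changes of the same sign. Other gene pairs were not counted in this way, so no result about clusters is drawn from these counts. Zfp paralogs in such clusters can be near identical, and binding of their RNA to each other's probes was not tested. Where a gene had several kept probes, in 76 Zfp genes, 0 had probes called in opposite directions in any comparison. At 6 h by the scanner 16 of the 76 had at least 1 probe called and 5 had all. In Zfp975, named after its values were seen, the brightest probe was at -0.83 at 6 h by the scanner and -0.44 by the table, while a second probe fell by 2.16 and by 2.06.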

How the data were processed

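Per the labels' protocols, labelled RNA was hybridised to 1-colour Agilent arrays, read with Agilent Feature Extraction 9.1.3.1 per the submitters' processing notes. Per the file headers the deposited scanner files hold processed signal intensity per spot. The authors' deposited value table holds a linear ratio to the median of the 0 h samples, read from its values, since each row has a median of 1 over those samples. The genome build of the probe annotation was not given in the sources used here.

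For the scanner source, outlier spots were left out, log2 intensity was taken minus each array's 75th percentile, and spots of a probe were averaged. For the second source the log2 of the deposited ratio was used. A probe was kept if well above background on all 3 arrays of a time point, and the brightest kept probe stood for its gene, since different probes of a gene can disagree. Symbols came from RefSeq (GRCm38.p6) through accessions, and probes without a symbol were counted by accession. Limma 3.58.1 in R 4.3.3 fitted 4 group means over 12 arrays for 18403 genes, with Benjamini-Hochberg adjustment. The fit and the calling rule alone were tested on simulated log2 values, for 6 h against 0 h. Of simulated log2 changes of 1.5 there, 85% were called the right way for the scanner and 87% for the table. The number of arrays limits the precision. The signal before background subtraction was taken from spot medians for the normexp alternative, as spot means were not in the files. Alternatives were normexp, quantile scaling, other filters and probe rules, slide or replicate as a block, and leaving out each sample.

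Same-numbered samples did not deviate together (correlations of -0.0853 to 0.155), so numbers were not used as pairs. No array was a copy of another. Genes named are those of the role lists, the 6 largest rises and falls called in each source and time, and those called alike or oppositely in both sources. Members and lists were chosen with earlier results of these data known. Protein sequences were not analysed here.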

Additional observations from a re-analysis of the deposited data

How the results depend on the processing

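Counts below are Zfp genes called higher and lower. Without a fold threshold the scanner called 54 and 80 at 6 h, 63 and 77 at 12 h, 6 and 2 at 24 h, 51 and 31 at 12 h against 6 h, and 165 over the time course, and in the table they were 73 and 66, 97 and 44, 71 and 63, 84 and 14, and 178 over the time course. With normexp the scanner called 8 and 6 at 6 h, 11 and 7 at 12 h, 0 higher at 24 h, 1 and 1 at 12 h against 6 h, and 20 over the time course. With quantile scaling the scanner called 1 higher at 24 h and 2 and 1 at 12 h against 6 h, and the value table gave 2, 3 and 3 higher and 6, 6 and 7 lower at 6, 12 and 24 h, 0 higher at 12 h against 6 h and 12 over the time course. With genes above background on all arrays the scanner called 10 lower at 6 h, 1 higher at 24 h, 2 higher at 12 h against 6 h and 27 over the time course, and the table gave 4 lower at 6 h and 0 higher at 12 h against 6 h; fewer genes were tested there. Without a filter the scanner called 0 higher at 24 h and the table gave 4 higher at 12 h against 6 h. With outlier spots kept 1 was higher at 24 h by the scanner. With the mean of probes the scanner called 1 and 0 at 24 h, and the table gave 1 lower at 12 h against 6 h. Relative to the median of all genes the table called 6 and 14 at 6 h and 7 and 10 at 12 h. With slide as a block the scanner called 0 and 0 at 24 h and 1 lower at 12 h against 6 h (also 1 within slide 2), and the table gave 21 higher at 12 h, 22 and 6 at 24 h, and 4 higher at 12 h against 6 h. With the replicate block 1 was higher at 24 h by the scanner and 0 higher at 12 h against 6 h by the table; the block moved no other count by over 1.5 times. The cause of these differences was not tested.

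Leaving out each sample in turn gave ranges of 10 to 11 higher and 17 to 22 lower at 6 h, 13 to 16 and 16 to 20 at 12 h, 0 to 2 higher at 24 h, 3 to 6 and 1 to 3 at 12 h against 6 h, and 38 to 44 over the time course by the scanner. By the table they were 8 to 11 and 7 to 11, 10 to 13 and 5 to 8, 8 to 11 and 10 to 11, 1 to 3 higher at 12 h against 6 h, and 29 to 33 over the time course. Single-gene results were on the same side of the threshold in 8711 of the alternatives, past it only there in 184 and no longer past it in 133. Signal over background limits Zfp811, Zfp607a, Zfp609, Zfp536, Zfp647, Zfp667 and Zfp532, which have only a bound in some groups, and Zfp467, above background on 1 of 3 arrays at 6 h.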
